A study of Plutella xylostella with 12 samples.

Results

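The microRNA pxy-miR-263a-5p was followed in *Plutella xylostella*, the diamondback moth, whose whole 3rd instar larvae had been exposed to chlorantraniliprole, a diamide insecticide that acts on the ryanodine receptor. Its rows were found by name in each of the 12 small RNA libraries, where it was 1 of 105 miRNA names and filled 131 of the 3390 rows. The larvae belonged to the Waite strain, described in the labels as susceptible to insecticides, and had survived either 0.1 ppm (high dose) or 0.01 ppm (low dose). They were collected at 24 h or 6 h, which gave 4 groups of 3 libraries: high dose at 24 h, low dose at 24 h, high dose at 6 h and low dose at 6 h. Unexposed larvae were not analysed here, so the values below compare doses and times of exposure only. The sources used here do not give the number of larvae in a library.

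An miRNA is cut from a hairpin precursor, and its arm loaded into Argonaute represses messenger RNAs that pair with its seed. In *Drosophila*, miR-263a and its relative miR-263b protect mechanosensory bristles from apoptosis by repressing the cell death gene hid, and miR-263a represses epithelial sodium channel subunits in the gut. Both are related to the vertebrate miR-183 family, known from sense organs. These roles come from other species and were not measured in this moth. The mature sequence is not printed, since neither the files nor the reference table at hand (assembly ilPluXylo3.1, with 0 miRNA entries) held it.

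The miRNA was selected on measured values of these libraries, and which values those were is not recorded. Its levels, fold changes and the split of its counts over its rows are therefore given as descriptions with replicate values and errors, without p-values of its own.

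Library totals lay between 10714 and 41214 counts. They were 28682 to 40388 at high dose and 37741 to 41214 at low dose after 24 h, against 19692 to 25815 and 10714 to 30676 after 6 h, so depth moved with time. No row under 5 counts was listed in any library. Libraries of the same group differed beyond sampling noise in each of the 12 pairs (chi-square per degree of freedom 2.87 to 10.1), and none was merged.

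With a mean of 7.05% ± 1.24 (SD, n = 12) of the counts, pxy-miR-263a-5p was the 5th most abundant miRNA, and it stood between the 4th and the 6th place in every library. Its neighbours in abundance were pxy-mir-31-5p (12.4%) and pxy-mir-184-3p (8.15%) above it, and pxy-miR-274-5p (6.25%) and pxy-miR-9b-5p (3.41%) below it. No library listed the 3p arm of miR-263a. The relative pxy-mir-263b-5p appeared in 2 libraries with 5 counts each, high-dose replicate 2 at 24 h and high-dose replicate 3 at 6 h. That is the lowest count any row shows, so its absence elsewhere is not a measured 0.

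Larvae collected at 24 h had a smaller mean share of pxy-miR-263a-5p than larvae collected at 6 h (6.31% ± 0.90 against 7.79% ± 1.12, SD, n = 6 each), and the mean was smallest at the high dose after 24 h. At the high dose and 24 h, replicates 1, 2 and 3 held 1857, 2071 and 1939 counts of it, which were 6.47%, 6.00% and 4.80% of the library. At the low dose and 24 h they held 2331, 2955 and 2983 counts, or 6.18%, 7.18% and 7.24%. At the high dose and 6 h they held 1786, 1712 and 1646 counts, or 9.07%, 6.63% and 6.43%, and at the low dose and 6 h 2698, 798 and 1706 counts, or 8.80%, 7.45% and 8.37%. High-dose replicate 1 at 6 h stood highest of all 12 and high-dose replicate 3 at 24 h lowest. The exact 95% binomial interval was widest in the shallowest library, low-dose replicate 2 at 6 h (6.96% to 7.96%), and the intervals cover counting error only. The labels mention no molecular identifiers, and reads are therefore not independent molecules. RNA came from whole larvae, so fewer cells of a type and less RNA per cell cannot be told apart here or for any miRNA below.

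**Figure D1:**
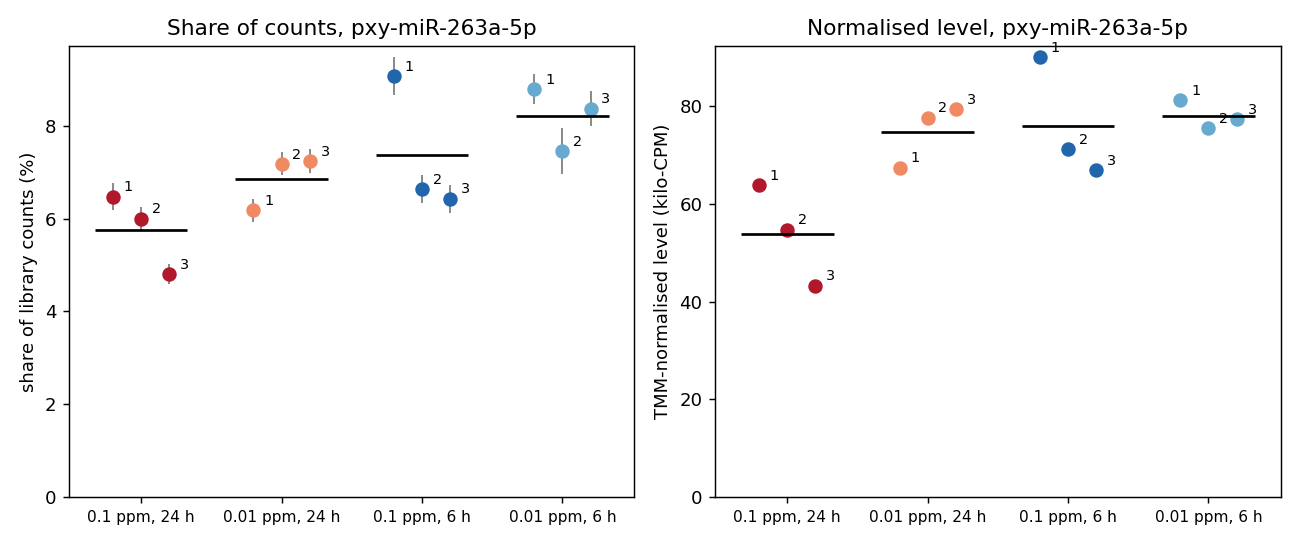
Share of library counts (left, percent, with exact 95% binomial intervals) and TMM-normalised level (right, kilo-CPM) of pxy-miR-263a-5p. Each point is a library with its replicate number, and horizontal lines are group means. On the right the 3 high-dose libraries at 24 h (43194 to 63852 CPM) lie below the other 9, whereas on the left their shares (4.80% to 6.47%) overlap those of low-dose larvae at 24 h and of high-dose larvae at 6 h.

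By group the share averaged 5.76% ± 0.86 at high dose and 6.86% ± 0.60 at low dose after 24 h, and 7.38% ± 1.47 at high dose and 8.20% ± 0.69 at low dose after 6 h (SD, n = 3 each). The order of the means was thus low dose at 6 h, high dose at 6 h, low dose at 24 h and high dose at 24 h. Each group overlapped its neighbour in this order. Shares of the 3 low-dose libraries at 24 h lay below those of the 3 low-dose libraries at 6 h without overlap. How often shares of other miRNAs separate these groups is not given here. The high-dose libraries at 24 h and 6 h overlapped because high-dose replicates 2 and 3 at 6 h stood close to the 24 h values.

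After normalisation the gap moved to the high-dose larvae at 24 h. TMM-normalised counts brought to a common library size (CPM), with each library scaled by the bulk of its miRNAs, were 63852, 54675 and 43194 in high-dose replicates 1, 2 and 3 at 24 h, against 67372, 77607 and 79330 in the low-dose ones. At 6 h they were 89967, 71133 and 66816 at the high dose, against 81234, 75469 and 77288 at the low dose. The high-dose mean at 24 h, 53907 ± 10350.3 CPM, was the lowest, and all 3 of its libraries were under the other 9. The other means, 74770 ± 6464 CPM (low dose, 24 h), 75972 ± 12311 CPM (high dose, 6 h) and 77997 ± 2947 CPM (low dose, 6 h), lay within each other's spread. Scaling factors moved with the groups, from 1.01 to 1.11 in the high-dose and from 0.912 to 0.925 in the low-dose libraries at 24 h, against 0.932 to 1.01 and 0.987 to 1.08 at 6 h. With library totals in place of these factors the log2 difference between high and low dose at 24 h was -0.25, against -0.47 with them.

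At 24 h the level was 1.39-fold lower at the high than at the low dose (log2 fold change -0.47 ± 0.14 SE), where the median of the 73 miRNAs fitted was -0.16. This was the 14th lowest fold change of the 73. The CPM of the groups did not overlap here, which was so for 41.1% of the 73 miRNAs, 19 of them lower and 11 higher. Without high-dose replicate 3 the value was -0.31, and without low-dose replicate 2 it was also -0.31. At 6 h the doses differed by -0.04 ± 0.14, the 34th lowest of 73, with overlapping libraries. Averaged over times the log2 difference was -0.26 ± 0.10, the 21st lowest. The dose difference at 24 h minus that at 6 h was -0.43 ± 0.20, the 22nd lowest.

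Between times, high-dose larvae had 1.41-fold less pxy-miR-263a-5p at 24 h than at 6 h (log2 -0.50 ± 0.14 SE), where the median miRNA stood at -0.01. This was the 5th lowest fold change of the 73. The libraries did not overlap, as was the case for 20.5% of the miRNAs, 6 of them lower and 9 higher. Low-dose larvae differed by -0.06 ± 0.14 between 24 h and 6 h, the 27th lowest of 73, and their CPM overlapped. The average over doses was -0.28 ± 0.10, the 7th lowest of 73. With 1 library left out, the value ran from -0.65 to -0.40 at the high dose and from -0.22 to -0.06 at the low dose. The average then ran from -0.40 to -0.28.

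The size of these differences depended on how libraries were scaled. For dose at 24 h the log2 fold change was -0.36 with relative log expression (RLE) factors, -0.25 with library totals and -0.11 with upper quartile factors, which moved the median of all 73 miRNAs to 0.21. That median was -0.16 with TMM, -0.048 with RLE factors and 0.065 with library totals. In this comparison pxy-miR-263a-5p lay below the median by a similar amount under each of these scalings. For dose at 6 h the log2 fold change was -0.014, -0.16 and 0.14 with RLE factors, library totals and upper quartile factors. For dose averaged over times it was -0.19, -0.21 and 0.015, so the direction of both turned with upper quartile factors. With TMM factors computed without pxy-miR-263a-5p itself, dose at 24 h stood at -0.39 and dose at 6 h turned to 0.023. For time at the high dose it was -0.50, -0.36 and -0.31, and for time at the low dose -0.15, -0.26 and -0.07. Beside these, upper quartile factors put the median of the 73 at 0.16, 0.23 and 0.18 for dose at 6 h, dose averaged and time at the high dose, and library totals put it at -0.15 for dose at 6 h, -0.13 for time at the low dose and 0.14 for time at the high dose. With TMM, RLE, library totals, upper quartile factors and DESeq2, pxy-miR-263a-5p was lower at 24 h than at 6 h at both doses.

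**Figure D2:**
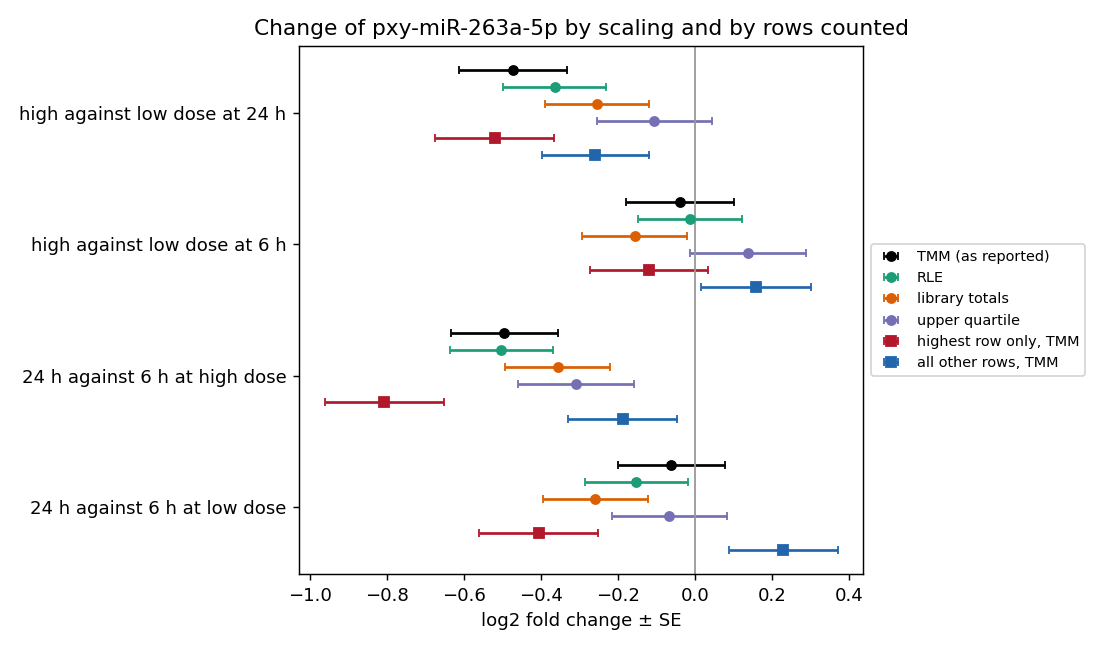
Log2 fold change of pxy-miR-263a-5p (horizontal axis, points with standard errors) in 4 comparisons, each with 4 scalings of the libraries (circles) and, under TMM, with only its highest row or only its other rows counted (squares). For time at the high dose the highest row stands at -0.81 and the other rows at -0.19.

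Ratios to the other 9 of the 10 most abundant miRNAs need no scaling. At 24 h, high-dose larvae had a lower mean log2 ratio than low-dose larvae against 6 of the 9, and the libraries did not overlap for 4, namely pxy-miR-274-5p, next to it in abundance, pxy-mir-31-5p, pxy-miR-10-5p and pxy-mir-276-3p. Against pxy-mir-276-3p, whose level varied least between replicates among these 10, the log2 ratio was 0.75 ± 0.23 at the high and 1.23 ± 0.17 at the low dose (SD, n = 3 each). At 6 h the mean ratio was lower at the high dose against 7 of the 9, but none of the 9 ratios separated the doses. High-dose larvae at 24 h and 6 h were separated, lower at 24 h, against 3 of the 9 (pxy-miR-10-5p, pxy-mir-276-3p and pxy-miR-750-3p). Low-dose larvae were separated, lower at 24 h, against pxy-miR-750-3p, against both pxy-miR-279b-3p and the abundant pxy-miR-281-5p, and higher against pxy-miR-9b-5p. The ratio shows unequal change of a pair and not which member changed. All 9 ratios share the counts of pxy-miR-263a-5p, so they are not separate results. How often ratios between other miRNAs separate these groups is not given here.

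The replicate spread of pxy-miR-263a-5p was among the larger ones of the abundant miRNAs. Its pooled standard deviation within groups was 0.19 on the log2 scale, the 8th lowest of the 10 and the 20th lowest of the 73. Only pxy-miR-10-5p (0.21) and pxy-mir-184-3p (0.26) varied more among the 10. The coefficient of variation of its CPM was 19.2% at high dose and 8.65% at low dose after 24 h, and 16.2% at high dose and 3.78% at low dose after 6 h.

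The files give each name in several rows with a count each, and what sets the rows of a name apart is not stated. In pxy-miR-263a-5p a library listed 7 to 15 rows, 11 to 13 at high dose and 13 to 15 at low dose after 24 h, against 9 to 10 and 7 to 11 after 6 h. Its highest row held 45.2% to 55.0% of its counts in the 24 h libraries and 52.4% to 67.4% in the 6 h libraries. Rows can be ranked within a library but not matched between libraries, so a rank need not be the same sequence in each.

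The mean share of pxy-miR-263a-5p counts in its highest row was lower at 24 h than at 6 h and lower at the high than at the low dose. In replicates 1, 2 and 3 it was 47.8%, 48.9% and 45.2% at high dose after 24 h, against 55.0%, 54.0% and 51.9% at low dose. After 6 h it was 58.5%, 64.1% and 52.4% at high dose, against 67.4%, 60.3% and 65.2% at low dose. All 3 high-dose libraries at 24 h lay below every other library, and all 3 low-dose libraries at 6 h above every 24 h library. High-dose replicate 3 at 6 h stood among the low-dose values at 24 h.

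**Figure D3:**
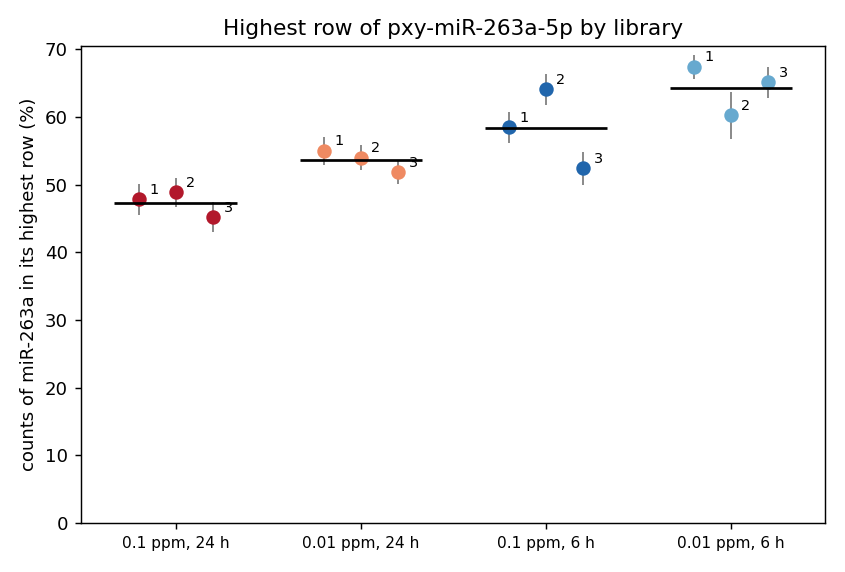
Percent of the pxy-miR-263a-5p counts of a library that stand in its highest row. Each point is a library with its replicate number and exact 95% binomial interval, and horizontal lines are group means, which step up from 47.3% at high dose after 24 h to 64.3% at low dose after 6 h.

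At 24 h the highest row held 50.4% ± 3.80 and at 6 h 61.3% ± 5.44 (SD, n = 6 each), a difference of -10.9 percentage points. The mean was lower at 24 h by -11.1 points at the high dose and by -10.7 points at the low dose, in both without overlap. High-dose larvae averaged 52.8% ± 7.21 and low-dose larvae 59.0% ± 6.37 (SD, n = 6 each), a difference of -6.13 points. This difference was -6.32 points at 24 h, without overlap, and -5.93 points at 6 h, where the libraries overlapped. How often the highest-row share of other miRNAs separates these groups is not given here. Leaving out each library in turn gave -12.4 to -9.43 points for time and -7.57 to -4.65 points for dose. The miRNA's own level and this share have the counts of the highest row in common, so the share is no independent evidence beside the level.

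Depth moved with time, and deeper libraries list more low rows. Counted over the 6 highest rows alone, which every library lists, the difference between 24 h and 6 h was -10.3 points and that between doses -6.23 points. Among high-dose libraries of similar depth, replicate 1 at 24 h (28682 counts) stood at 47.8%, and at 6 h replicate 2 (25815 counts) stood at 64.1% and replicate 3 (25614 counts) at 52.4%. This last pair, of the same group and depth, thus lay farther apart than the means of 24 h and 6 h. With the shallowest pair of libraries left out, low-dose replicate 2 and high-dose replicate 1 at 6 h, the differences were -11.8 points for time and -7.17 points for dose.

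As a share of all library counts, the highest row separated groups that its other rows together did not. It took 2.73% ± 0.49 of all counts at high dose and 3.68% ± 0.25 at low dose after 24 h, and 4.31% ± 0.97 at high dose and 5.29% ± 0.73 at low dose after 6 h (SD, n = 3 each). Without overlap, it was lower in high-dose than in low-dose larvae at 24 h, and lower at 24 h than at 6 h at both doses. How often the highest rows of other miRNAs separate these groups is not given here. By CPM of summed rows, 19 of the 73 miRNAs were lower and 11 higher without overlap for dose at 24 h. For time, 6 were lower and 9 higher at the high dose, and 6 lower and 20 higher at the low dose. All other rows together took 3.03% ± 0.37 at high dose and 3.19% ± 0.37 at low dose after 24 h, and 3.07% ± 0.69 at high dose and 2.91% ± 0.05 at low dose after 6 h. For these rows each of the 4 pairs of groups overlapped. The row in 2nd place alone took 1.58% ± 0.20 and 1.57% ± 0.19 at high and low dose after 24 h, and 1.60% ± 0.44 and 1.65% ± 0.12 at high and low dose after 6 h.

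**Figure D4:**
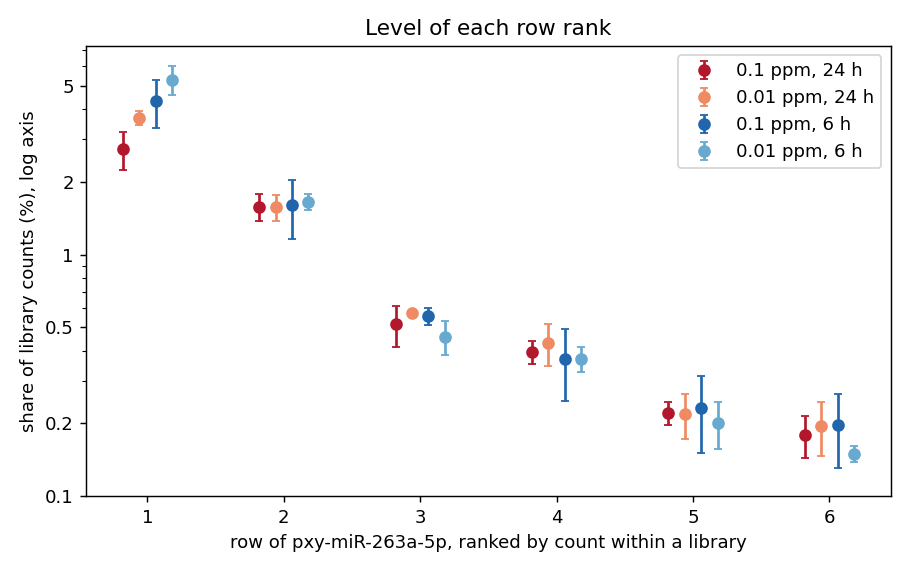
Level of the 6 highest rows of pxy-miR-263a-5p as a share of library counts (vertical log axis, percent), by rank within a library, as group means with standard deviations (n = 3). Means in 1st place run from 2.73% at high dose after 24 h to 5.29% at low dose after 6 h, while those in 2nd place lie between 1.57% and 1.65%.

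On the TMM scale the same split held. With only the highest row of pxy-miR-263a-5p counted, the log2 fold change for dose was -0.52 ± 0.15 SE at 24 h and -0.12 ± 0.15 at 6 h, and with only its other rows -0.26 ± 0.14 and 0.16 ± 0.14. Between 24 h and 6 h the highest row stood at -0.81 ± 0.16 at the high and -0.41 ± 0.15 at the low dose, whereas the other rows stood at -0.19 ± 0.14 and 0.23 ± 0.14. Averaged over doses this was -0.61 for the highest row and 0.020 for the others. These values are descriptions, and the split was tried after the row shares had been seen.

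Among the 10 most abundant miRNAs, pxy-miR-263a-5p showed the largest difference in highest-row share both between times and between doses. For time the other 9 ran from -2.48 points (pxy-mir-184-3p) to 3.31 points (pxy-miR-281-5p), and for dose from -4.07 points (pxy-miR-281-5p) to 0.49 points (pxy-miR-10-5p). The difference for pxy-miR-263a-5p minus the mean of the other 9 was -10.6 points between times and -5.10 points between doses. When all 10 miRNAs were tested singly by exact permutation, none passed over the 20 tests. A lone miRNA at the smallest possible permutation p of 0.005 could not pass after adjustment over these 20 tests. They therefore cannot decide whether a lone miRNA differed in highest-row share. This measure was chosen after the row shares had been seen.

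**Figure D5:**
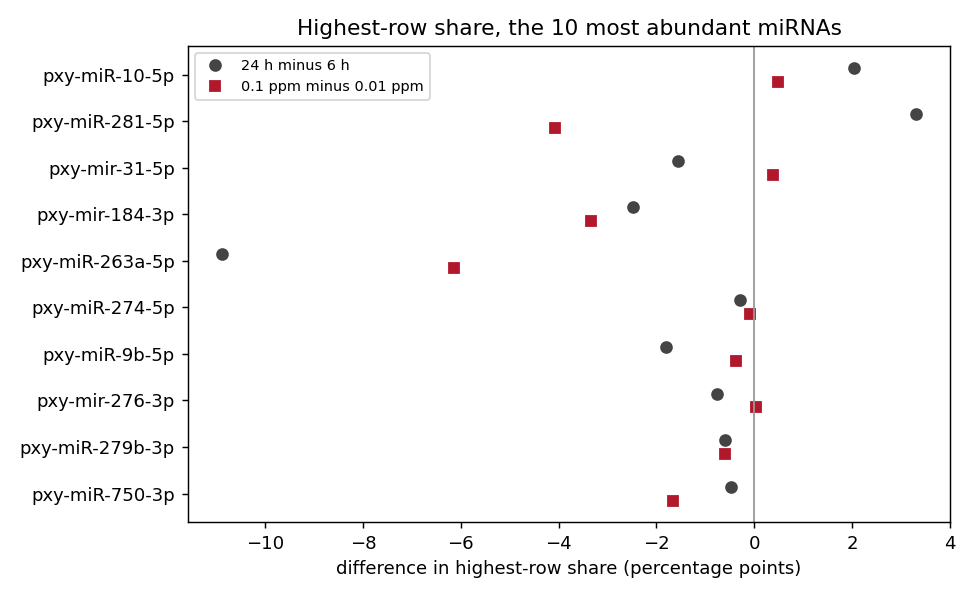
Difference in the share of counts in the highest row (percentage points) for the 10 most abundant miRNAs in order of abundance, 24 h minus 6 h (circles) and 0.1 ppm minus 0.01 ppm (squares), each averaged over the other factor. The values of pxy-miR-263a-5p, -10.9 and -6.13 points, lie farthest from 0.

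In terms of the odds of the highest row against the rest, over the 7 miRNAs with at least 100 counts outside the highest row in every library, pxy-miR-263a-5p stood at a log2 difference of -0.65 between times and -0.36 between doses. None of the 7 passed over the 14 exact permutation tests of these odds. Here too 1 miRNA alone at the smallest possible p of 0.005 could not pass after adjustment. Apart from pxy-miR-263a-5p, the other 6 lay between -0.18 and 0.19 for time and between -0.24 and 0.03 for dose. Over a wider set of 23 miRNAs with at least 50 counts and more than 1 row in every library, its difference between times was the 2nd lowest, after the -11.4 points of pxy-miR-750-5p, and its difference between doses the 3rd lowest, where pxy-mir-278-3p was lowest at -9.95 points. The medians of the 23 were -0.97 and -0.09 points.

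By likeness of pattern (Pearson correlation of log2 CPM over the 12 libraries, as a description), the miRNAs most like pxy-miR-263a-5p were pxy-miR-9b-5p (0.75), pxy-miR-2a-3p (0.71), pxy-mir-92b-3p (0.70) and pxy-miR-279b-3p (0.68). Those least like it were pxy-miR-308-3p (-0.80) and pxy-let-7-5p (-0.78), and the median over the other 72 was -0.01. With group means removed the correlations of the first 4 were 0.48, 0.48, 0.33 and 0.14, and those of pxy-miR-308-3p and pxy-let-7-5p were -0.47 and -0.19. All points share the scaling of their library. Like miR-263a, pxy-miR-9b-5p was lowest at high dose after 24 h (27085 CPM), with 32589 CPM at low dose after 24 h, 34547 CPM at high dose and 41983 CPM at low dose after 6 h. The timing miRNA pxy-let-7-5p ran the other way, with 4049 CPM at high dose and 2263 CPM at low dose after 24 h, and 2301 and 1776 CPM at high and low dose after 6 h.

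Among other miRNAs that repress cell death genes in *Drosophila*, no more than 1 passed the test in any comparison. Those that passed did so in different comparisons. For dose at 24 h pxy-miR-308-3p stood at 0.76, which passed, and pxy-miR-2a-3p at -0.34, which did not. For dose averaged over times pxy-miR-2a-3p stood at -0.36, which passed, and pxy-miR-308-3p at 0.48, which did not. These 2 miRNAs thus stood in opposite directions for dose. The list held 8 names, of which 7 were tested and pxy-mir-263b-5p was not. For dose at 24 h, 1 of the 7 passed and was higher, pxy-miR-308-3p of the miR-2 seed family (log2 0.76 ± 0.24 SE, edgeR's quasi-likelihood test, Benjamini-Hochberg adjusted p = 0.0303), beside 16.4% of all 73 miRNAs in either direction and 6.85% higher. The call was lost without high-dose replicate 3 (24 h) or low-dose replicate 1 or 3 (24 h), and its value ran from 0.68 to 1.01 when libraries were left out. For dose averaged over times 1 of 7 was lower, pxy-miR-2a-3p (-0.36 ± 0.09, adjusted p = 0.0101, edgeR), beside 13.7% of all in either direction and 9.59% lower. It was lost without high-dose replicate 3 or low-dose replicate 2 at 24 h or low-dose replicate 1 or 3 at 6 h, with values from -0.39 to -0.26, and also with upper quartile factors. For time at the low dose 1 of 7 was higher, pxy-mir-14a-3p (0.40 ± 0.14, adjusted p = 0.0488, edgeR), beside 19.2% of all in either direction and 13.7% higher. Of 12 fits that left out 1 library, it passed in 2, which lacked replicate 2 of the high dose at 24 h or replicate 2 of the low dose at 6 h, and its value ran from 0.18 to 0.48. It was also lost with RLE factors, library totals, upper quartile factors, DESeq2, no filter, 10 counts required in every library, the highest row alone and only the libraries of the comparison. No member passed for dose at 6 h, time at the high dose, time averaged over doses or the difference of the dose effects, where 1.37%, 6.85%, 11.0% and 8.22% of all passed. The list median was -0.22 for dose at 24 h, against -0.16 for all 73, and 0.05 for time averaged over doses, against 0.05. Members of the miR-2 seed family and the miR-14 pair may share reads, which the sources used here do not settle.

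Of the gut list only both arms of miR-281, an miRNA abundant in the gut and tubules of several insects, were listed and tested. Its 5p arm fell for dose at 24 h (-0.61 ± 0.12 SE, adjusted p = 0.000822, edgeR), beside 9.59% of all 73 lower, and passed in each of 12 fits that left out 1 library, though not with upper quartile factors. It also passed lower for dose averaged over times (-0.29, beside 9.59% of all lower). For time at the low dose it passed higher (0.37, beside 13.7% of all higher). For the difference of the dose effects it passed lower (-0.65, beside 5.48% of all lower). In that order it passed in 5, 2 and 7 of the 12 fits. For dose averaged the call was lost without high-dose replicate 3 at 24 h or any low-dose library. For time at the low dose it passed only when replicate 2 of the high dose at 24 h or replicate 3 of the high dose at 6 h was left out. For the difference it was lost at 24 h without replicate 3 of the high dose or replicate 1 or 2 of the low dose, and at 6 h without replicate 2 of the high dose or replicate 3 of the low dose. The 3p arm passed in none of the 7 comparisons, with 0.07 ± 0.15 for dose at 24 h.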

How the data were processed

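Per the labels' protocols, small RNA libraries were made from total RNA with a TruSeq kit and sequenced on an Illumina HiSeq (50 nt reads). The deposited files hold counts per row and miRNA name, per the file headers. The sources used here name no mapper, miRNA reference or filter. The labels name the libraries biological replicates but do not say whether they came from separate cultures, so p-values may measure technical spread.

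The rows of each name were summed. EdgeR 4.0.16 in R 4.3.3 was fitted to all 12 libraries with 1 coefficient a group: filterByExpr (minimum count 10, 73 names tested and 32 not), TMM factors, glmQLFit and glmQLFTest, Benjamini-Hochberg over 73 miRNAs, threshold 0.05. Standard errors are the log2 fold change over the root of F. Log2 CPM for spread and correlations used a prior count of 2. Row shares of the 10 most abundant miRNAs were compared by exact permutation in Python 3.11.15. Both procedures were tested on simulated data, only for time averaged over doses. The edgeR simulation had more names and deeper libraries than these data, and the permutation one used normal noise. Neither shows how the procedures behave at the depth of these libraries. Planned tests of the row share of pxy-miR-263a-5p alone are not reported, since the share is not independent of how the miRNA was selected. Alternatives used DESeq2 1.42.0, limma 3.58.1 and the settings of the closing section.

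The miRNA, the lists and the tests were chosen with earlier results of these data known. Named were the miRNA, its family, the lists, its abundance neighbours, the 10 most abundant, and the 4 most and 2 least alike. A few others, pxy-miR-750-5p and pxy-mir-278-3p, were named after their values were seen.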

Additional observations from a re-analysis of the deposited data

How the results depend on the processing

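A level of pxy-miR-263a-5p is taken as moved when it shifts by more than its pooled replicate SD of 0.194 (log2). With upper quartile factors it moved to 0.015 for dose averaged over times and to -0.11 for dose at 24 h. With library totals it moved to -0.25 for dose at 24 h, -0.26 for time at the low dose and -0.10 for the difference of the dose effects. With the highest single row of every name it moved to -0.54 for time averaged over doses, -0.36 for time at the low dose and -0.73 for time at the high dose, and with the highest row of pxy-miR-263a-5p alone to -0.61, -0.41 and -0.81. With all its rows but the highest it moved to -0.051 for dose averaged over times, 0.16 for dose at 6 h, -0.26 for dose at 24 h, 0.020 for time averaged over doses, 0.23 for time at the low dose and -0.19 for time at the high dose. The highest row took 2.73%, 3.68%, 4.31% and 5.29% of counts at high and low dose after 24 h and high and low dose after 6 h. Leaving out each library moved none of the 7 level comparisons by more than that SD. The difference of the dose effects was -0.24 when replicate 3 of the high dose at 24 h was left out, -0.30 and -0.31 when replicates 2 and 3 of the low dose at 24 h were, and -0.26 when replicate 1 of the high dose at 6 h was. Dose averaged was -0.16 when replicate 2 of the low dose at 24 h was left out. The cause was not tested.

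Replicate numbers were shared by the groups. Over all pairs of groups, same-numbered libraries did not deviate together throughout (r from -0.53 to 0.46 over 57 miRNAs, above 0.1 in 5 of 18 pairs, 1 of 12 libraries nearest its own number). Between doses at 24 h, r for replicates 1, 2 and 3 was 0.42, 0.18 and 0.03. Between doses at 6 h it was 0.35, 0.46 and -0.05. Between libraries of different times it ran from -0.53 to 0.11. Whether replicates were paired within a time was not tested. With the replicate number as a block the levels stood at -0.49 for dose at 24 h and -0.50 for time at the high dose. The paired difference in highest-row share was -6.13 points for dose and -10.9 points for time, as without the block.

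Shares of all miRNAs called under the same setting follow in brackets. Calls of the cell death list for dose averaged over times were 2 with limma-voom (19.2%), the highest row (15.7%), no filter (11.4%) or 10 counts required in each library (19.6%), against 1 (13.7%), and for dose at 24 h 3 with limma-voom (30.1%), against 1 (16.4%). They were 1 for dose at 6 h with library totals (2.74%) or no filter (2.86%), against 0 (1.37%), and 1 for time at the high dose with library totals (9.59%) or 10 counts required (8.7%), against 0 (6.85%). For time averaged over doses they were 1 with upper quartile factors (12.3%) or DESeq2 (15.1%) and 2 with limma-voom (20.5%), against 0 (11.0%). For time at the low dose they were 0 with RLE (11.0%) or upper quartile factors (8.22%), DESeq2 (15.1%), no filter (11.4%), 10 counts required (15.2%), the highest row (11.4%) or only the libraries compared (11.4%), against 1 (19.2%). Gut calls were 0 for dose averaged over times with RLE, library totals (9.59% each), upper quartile factors (15.1%) or 10 counts required (19.6%), against 1. They were 0 for time at the low dose with RLE (11.0%), library totals (13.7%), upper quartile factors (8.22%), no filter (11.4%) or 10 counts required (15.2%), against 1. They were also 0 for dose at 24 h with upper quartile factors (20.5%) and for the difference of dose effects with library totals (8.22%) or upper quartile factors (4.11%), against 1.

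With 1 library left out, cell death calls ran from 0 to 3 for dose averaged over times (all calls 4 to 16) and at 24 h (8 to 19), from 0 to 1 for dose at 6 h (0 to 7) and time at the low dose (4 to 13), and from 0 to 2 for time averaged over doses (3 to 13). Gut calls ran from 0 to 1 for dose averaged over times, time at the low dose, time at the high dose (all calls 2 to 7) and the difference of dose effects (3 to 9).

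Rows under 5 counts are not listed, which limits what can be said of pxy-mir-263b-5p and the 3p arm.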
